A study of Mus musculus with 9 samples.

Results

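The ER to Golgi coat and cargo genes are the genes whose products carry newly made proteins out of the endoplasmic reticulum (ER) and bring escaped ones back. They were chosen by name, as rows of the deposited gene table whose symbol belongs to the COPII coat, the COPI coat, their small GTPases, the cargo receptors, the p24 proteins, the KDEL receptors, or the tethers and SNARE. The list held 40 names for 39 genes, since Sec12 is another name of Preb, out of 33211 rows in the table. A second row with the symbol Golgb1 (ENSMUSG00000078096) held between 0 and 3 counts per library and was left out. Of the 39 genes, 38 passed the filter on low counts, as did 14220 genes in all.

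Liver RNA was sequenced from C57BL/6 mice (the J substrain, per the methods of the study) on a high-fat diet (HFD) stored in a freezer or a fridge. The HFDfre group (n = 5) ate a diet kept in a freezer at -20 °C and the HFDfri group (n = 4) a diet kept in a fridge at 4 °C. Per the methods of the study, the mice were wild-type males, 8 weeks old at the start, and ate either diet for 7 weeks. All 9 mice were on HFD, so no library gives the level on another diet. The libraries are numbered as in the labels, and no label says that equal numbers belong together.

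Proteins leave the ER in vesicles made by the COPII coat. The GTPase SAR1 is loaded by its exchange factor PREB at exit sites organized by SEC16, then binds the inner coat of SEC23 and SEC24, over which SEC13 and SEC31 build the outer cage. The COPI coat, recruited by ARF GTPases, forms vesicles that return ER residents and cargo receptors from the Golgi. In hepatocytes this route carries albumin, lipoproteins and clotting factors, and its genes are among those known to respond to the unfolded protein response, the signalling that follows an overload of the ER with unfolded proteins.

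The transcription factors of that response are known to bind short DNA elements. Promoter sequences were therefore read from RefSeq (GRCm38.p6), as windows from 250 bases before to 50 bases after each start site, and searched on both strands. A window was found for 34 of the 39 genes. No sequence was given here for Arcn1, Golgb1, Kdelr2, Lman1 and Tmed2. The letters TGACGTG, which are the core of the unfolded protein response element and read CACGTCA from the other strand, were present in 7 of the 34 genes, which is 20.6%. The same letters were found in 2.22% of all 27025 genes with a window and in 3.18% of the 10726 such genes that were tested. Of the 7, Kdelr3 was not among the tested genes. The 7 sites are shown with 11 bases on either side, 5′ to 3′ on the strand of the gene, in lower case with the element in capitals.
Sec16b, chr1:157506741-157506769, plus strand: ttctgtgtggcTGACGTGgcacggcagtt
Sec24d, chr3:123267459-123267487, plus strand: gcccgggcgccTGACGTGgcactagcaac
Sec23a, chr12:59011994-59012022, minus strand: ctcctccccttTGACGTGgcagaggcggc
Copb1, chr7:114254690-114254718, minus strand: ccgcccccttcCACGTCAgccaaggactt
Copb2, chr9:98563714-98563742, plus strand: cccggaagttcCACGTCAgtgggttggcc
Arf1, chr11:59228229-59228257, minus strand: gcggcaggcgcTGACGTGgctgccgtcag
Kdelr3, chr15:79516368-79516396, plus strand: ggccgccccgcCACGTCAccgcgcggcca

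The 7 sites lay close to the start site. Counted from the RefSeq start site of its window, the first base of the element was 44 bases before it in Sec16b, 29 in Kdelr3, 27 in Copb1, 26 in Sec24d and 6 in Copb2. In Sec23a and Arf1 the element lay after the start, with its first base at the position 7 and the position 22 of the transcript. In the gene annotation GENCODE M21 the sites of Sec16b, Sec24d, Copb1, Copb2, Arf1 and Sec23a fell in an untranslated first part of the gene, and that of Kdelr3 fell outside the gene. In all 7 the element was followed by a further G, as TGACGTGG, a run present in 0.714% of all genes with a window and in 1.01% of the tested ones.

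Other elements were counted in the same windows. The ER stress response element, CCAAT and CCACG with 9 bases between them, was in 0 of the 34 genes and in 0.137% of all genes. Its second form, ATTGG and CCACG with 1 base between them, was in 0 of 34 and in 0.0444% of all genes. At shares this low, 0 of 34 genes says nothing about the members. The 5 letters CCACG alone, which overlap TGACGTGG on its other strand, were in 26 of the 34 genes (76.5%) against 50.5% of the tested genes, and TGACG, which TGACGTG contains, was in 19 (55.9%) against 34.2%. CCAAT was in 13 (38.2%) against 42.8%. A match of letters is a description and shows neither binding nor an effect on expression.

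Before the comparison, the libraries were examined. Their totals ran from 58614917 to 69353439 counts, and each tested ER to Golgi gene had at least 195 counts in every library. The ribosomal RNA-like locus Gm26924 took 1.20% to 11.1% of the counts in HFDfre and 0.466% to 5.21% in HFDfri, and mitochondrial genes took 11.4% to 19.8% and 8.93% to 13.6%. The hepatocyte markers, among them Alb and Ttr, summed to 84200 to 90800 CPM (counts per 1000000 after TMM scaling) in HFDfre and 72600 to 101000 CPM in HFDfri. Markers of other liver cells were far lower, with 48.8 to 112 and 60.2 to 78.6 CPM for Kupffer cells, 74.5 to 89.6 and 57.2 to 83.8 for sinusoidal endothelium, 92.5 to 148 and 75.8 to 135 for stellate cells, and 25.5 to 46.5 and 23.9 to 46.9 for cholangiocytes. Lymphocyte markers summed to 3.95 to 8.67 and 3.65 to 4.67 CPM, and plasma cell markers, which include the ER genes Txndc5 and Derl3, to 107 to 132 and 104 to 168 CPM, with Tnfrsf17 below 0.1 CPM and HFDfri 1 highest. Of 6 markers of the exocrine pancreas, an organ next to the liver with a large ER, 5 were below 0.1 CPM throughout. Over these 8 lists, of 5 or 6 genes each, 2 genes were higher and 4 lower in HFDfri with an unadjusted p under 0.05. Of all tested genes, 11.4% were higher and 9.79% lower at that level. The part of the markers in the results was not tested. In bulk liver, fewer cells of a type and less RNA per cell cannot be told apart.

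Genes of ER stress were given from a list of 8, and they were high in HFDfri 3 and, for most, in HFDfri 1. All 8 had an unadjusted p under 0.05 and a positive fold change, as did 11.4% of all tested genes. The 8 were added after their values were seen, so this count and those below describe them only. They say nothing about ER stress genes as a set. By edgeR 0 passed the adjusted threshold, the smallest adjusted p being 0.0853 for Creb3l2. By DESeq2 Creb3l2 passed with an adjusted p of 0.00975, and the other genes of the list had 0.0644 or more. DESeq2 called 7.26% of all tested genes. HFDfri 3 was above every HFDfre library in 8 of the 8 genes, HFDfri 1 in 6, HFDfri 4 in 5 and HFDfri 2 in 2. Hspa5, the main ER chaperone, was at 220.4, 263, 285, 247 and 305 CPM in HFDfre and 708, 219.6, 984 and 338 CPM in HFDfri. HFDfri 1 and 3 were well above every other library, while HFDfri 2 was as low as the lowest HFDfre library. The fold change of Hspa5 was 1.09 ± 0.34 (log2 ± SE, here and throughout HFDfri minus HFDfre), with an edgeR adjusted p of 0.112, and it was 0.68 without HFDfri 3 and 1.36 without HFDfri 2. Creld2, an ER stress-induced secreted factor, showed the same 2 libraries high, at 13.6, 22.5, 15.1, 14.5 and 16.3 CPM in HFDfre and 70.2, 9.72, 94.7 and 20.6 CPM in HFDfri, and its fold change of 1.57 was 1.03 without HFDfri 3.

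Which libraries were high differed between genes of that list. Xbp1, a transcription factor of the unfolded protein response, was at 156, 126, 135, 126 and 139.8 CPM in HFDfre and 382, 146, 192 and 155 CPM in HFDfri. Its highest library was HFDfri 1, with HFDfri 3 next, and its fold change of 0.68 was 0.25 without it. Dnajb9, a co-chaperone, was at 12.0, 11.8, 17.2, 19.4 and 20.4 CPM in HFDfre and 17.3, 21.2, 115 and 29.7 CPM in HFDfri. Here HFDfri 1 was within the HFDfre range, HFDfri 3 was far above the rest, and the fold change of 1.50 was 0.49 without HFDfri 3. Creb3l3, a liver transcription factor held in the ER membrane, was at 202, 214, 206, 237 and 231 CPM in HFDfre and 232, 251, 288 and 272 CPM in HFDfri, with HFDfri 1 the lowest of the HFDfri libraries and inside the HFDfre range. HFDfri 1 and 3 together also hold the highest values of most ER to Golgi genes, so the counts of genes with an unadjusted p under 0.05 are given below with and without each of them. What part ER stress had in the results was not tested.

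**Figure D1:**
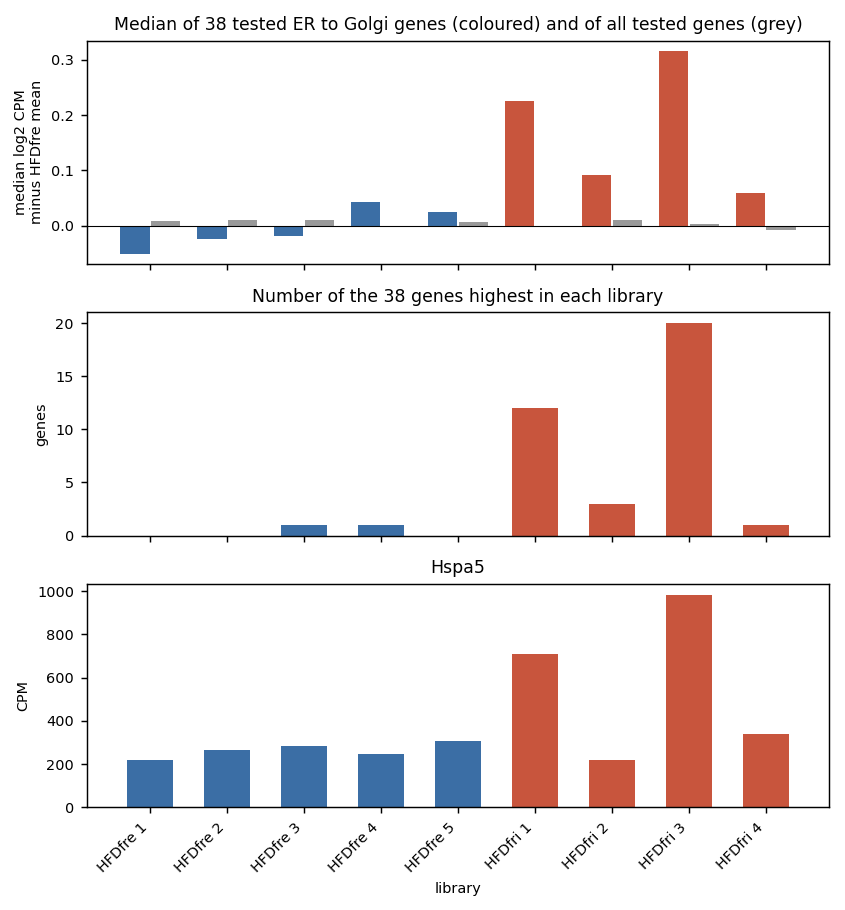
The 3 panels have the 9 libraries on the x axis, HFDfre in blue and HFDfri in red. The top panel shows the median over the 38 tested ER to Golgi genes of log2 CPM minus the HFDfre mean (coloured bars) beside the median over all tested genes (grey bars), the middle panel the number of the 38 genes with their highest value in each library, and the bottom panel Hspa5 in CPM; HFDfri 1 and 3 are highest in all 3 panels.

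In the comparison of the groups, the ER to Golgi genes were mostly a little higher in HFDfri, and none passed the adjusted threshold. Of the 38 tested genes, 35 (92.1%) had a positive fold change, against 49.1% of all tested genes. The median log2 fold change was 0.19, with a range from -0.17 to 0.67, against -0.01 over all tested genes. With an unadjusted p under 0.05, 17 of the 38 genes (44.7%) were higher in HFDfri, against 11.4% of all tested genes, and 0 were lower, against 9.79%. After adjustment over all tested genes, edgeR called 0 of the 38, the smallest adjusted p being 0.0677 for Tmed9, while 1.05% of all tested genes were called. DESeq2 called 3 genes, all higher in HFDfri (Tmed9 with an adjusted p of 0.00784, Sec23b with 0.02 and Arcn1 with 0.0243), which is 7.89% of the 38 against 7.26% of all tested genes, whereas limma-voom called 0. Nothing in the labels says that the livers were collected independently of cage or day, so the p-values measure only the spread between these 9 libraries.

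The size of these counts changed as single libraries were left out. HFDfri 3 held the highest value of the 9 libraries in 20 of the 38 genes (52.6%), against 17.3% of all tested genes, and HFDfri 1 in 12 (31.6%), against 15.6%. The median gene stood 0.32 above the HFDfre mean in HFDfri 3 and 0.22 above it in HFDfri 1 on the log2 scale, but 0.09 above it in HFDfri 2 and 0.06 in HFDfri 4. Of the 38 genes, 30 exceeded the highest HFDfre library in HFDfri 3, 28 in HFDfri 1, 15 in HFDfri 4 and 11 in HFDfri 2. The share of all tested genes that did so was not taken, so these counts describe the members only. Without HFDfri 3, the genes with a positive fold change numbered 32, the median was 0.12, and those with an unadjusted p under 0.05 fell from 17 to 6, or 15.8%, while the share of all tested genes that were higher at that level fell from 11.4% to 7.03%. Without HFDfri 1 they were 31, 0.15 and 13, with 12.8% of all tested genes higher. The count of 17 was also 7 without HFDfre 1, or 18.4% against 8.57% of all tested genes, and 11 without HFDfre 2, HFDfre 3 or HFDfre 5, against 9.90%, 8.36% and 9.59%. Without HFDfri 2, edgeR called 1 gene, Tmed9, with an adjusted p of 0.0227.

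The share of the ribosomal RNA-like locus differed between the libraries. Among the 2 HFDfre and 3 HFDfri libraries in which Gm26924 took under 3% of the counts, which leave out HFDfri 3, 31 of the 38 genes had a positive fold change and the median was 0.11. In that comparison 1 gene (Arf1) was higher and 1 (Sec24a) lower with an unadjusted p under 0.05, together 5.26% of the 38 against 9.67% of all tested genes. With the share as a covariate in all 9 libraries, 35 genes had a positive fold change and the median was 0.19. In that fit 14 genes were higher and 0 lower with an unadjusted p under 0.05. This is 36.8% of the 38 against 19.0% of all tested genes in either direction.

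Taken as a sum, the 39 genes held 2775 ± 69.2 CPM (SD) in the 5 HFDfre libraries and 3092.5 ± 246 CPM in the 4 HFDfri libraries. The HFDfri mean was 2993.8 CPM without HFDfri 3 and 3059 CPM without HFDfri 1. The sum in HFDfri 2, 2839 CPM, lay within the HFDfre range of 2696 to 2854 CPM, and that in HFDfri 3, 3389 CPM, was the highest. Only 3 genes, Copb1, Arcn1 and Tmed2, had every HFDfri library above every HFDfre library, which is 7.89% of the tested members against 4.02% of all tested genes. None had every HFDfri library below every HFDfre library, against 3.66% of all tested genes.

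**Figure D2:**
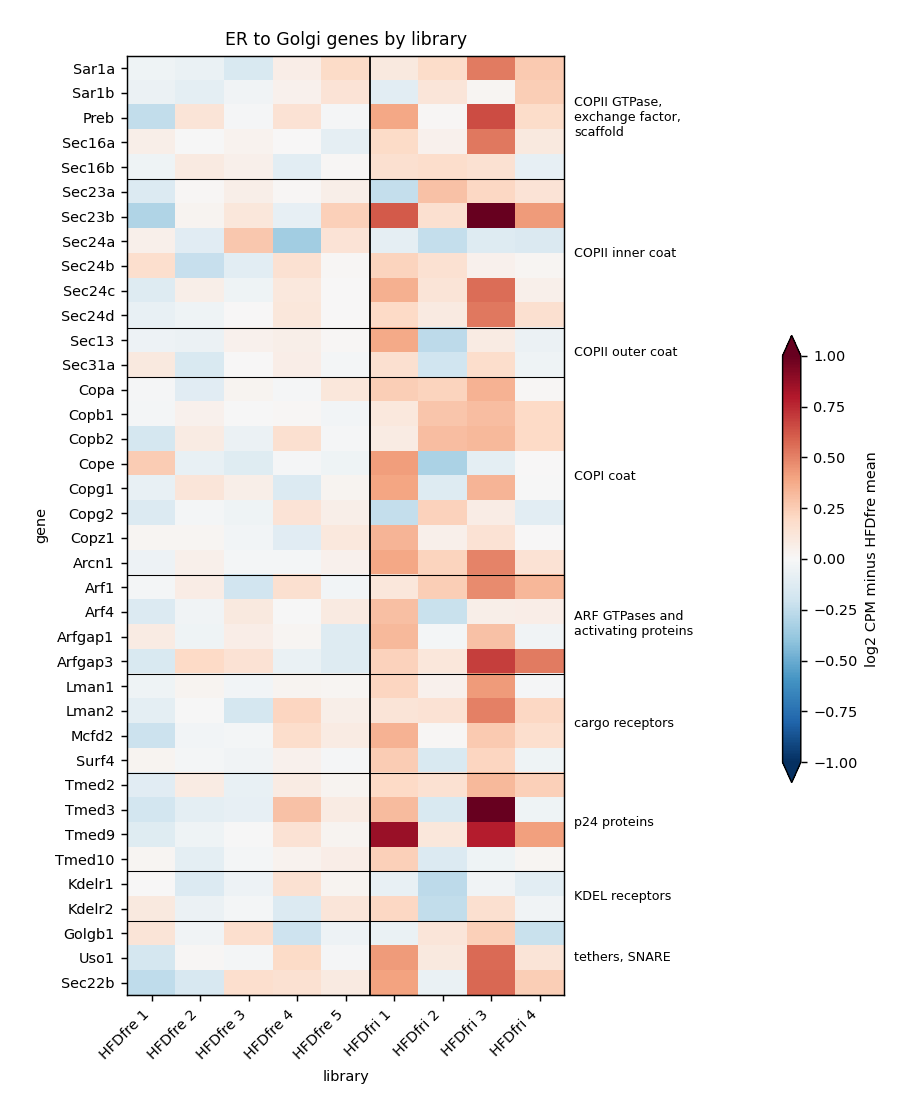
Heat map of the 38 tested ER to Golgi genes (rows, grouped by role) in the 9 libraries (columns, HFDfre left of the line), coloured by log2 CPM minus the mean of the 5 HFDfre libraries, with colours saturating at 1 in either direction. The columns of HFDfri 1 and HFDfri 3 are the reddest, and Sec23b and Tmed3 in HFDfri 3 lie beyond the scale.

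Of the 5 genes that start a COPII vesicle, Sar1a, Preb and Sec16a (60.0%) had an unadjusted p under 0.05. They were higher in HFDfri, as were 11.4% of all tested genes at that level. By edgeR 0 of the 5 passed the adjusted threshold, against 1.05% of all tested genes. All 5 fold changes were positive, with a median of 0.23. The count of 3 with an unadjusted p under 0.05 was 1 (Sar1a) without HFDfri 1 and 0 without HFDfri 3, where the median was 0.11. The shares of all tested genes that were higher at that level were then 12.8% and 7.03%. Sar1a (ENSMUSG00000020088, chr10:61680299-61693297, plus strand, with coordinates here and below from GENCODE M21, build GRCm38), a form of the GTPase SAR1, was at 48.8, 48.1, 45.3, 52.6 and 57.5 CPM in HFDfre and 53.8, 57.0, 72.2 and 60.2 CPM in HFDfri. HFDfri 3 was highest, and the groups overlapped only in that HFDfre 5 was above HFDfri 1 and 2. This gave a fold change of 0.27 ± 0.11 (edgeR adjusted p = 0.18). Preb, the exchange factor that loads SAR1 with GTP, had a fold change of 0.32 ± 0.13 and Sec16a, the long scaffold of the exit site, 0.23 ± 0.10, both with HFDfri 3 as the highest library. Without HFDfri 3 the fold change was 0.18 for Sar1a, 0.20 for Preb and 0.11 for Sec16a. Sar1b, the SAR1 form known for lipoprotein export, had 0.07 ± 0.09, and Sec16b, the shorter scaffold, 0.10 ± 0.08.

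Sar1b was the most abundant of the 39 genes per length of transcript. Its per-length level, counts per kilobase of transcript scaled to a sum of 1000000 per library, was 197 ± 29.1 in HFDfre (SD, n = 5), above Mcfd2 at 135 ± 26.2 and Tmed10 at 119.5 ± 14.2. Mcfd2 and Tmed10 differed from each other by less than their spread. Cope at 90.9 ± 7.83 and Arf1 at 88.5 ± 15.2 came next. This order depends on the length used. Mcfd2 had 1415 bases by median transcript and 2827 by total exon length, and Tmed10 1050.5 and 1603. Sar1b and Cope had the same length by both. Levels by total exon length are not given here. Of the genes tested, Arfgap3 was lowest at 2.19 ± 0.329, after Sec24b at 3.38 ± 0.517, Golgb1 at 5.80 ± 0.287 and Copg2 at 5.83 ± 0.984. The per-length level of Sar1a was 0.130 ± 0.006 of that of Sar1b in HFDfre and 0.150 ± 0.024 in HFDfri, and was 0.184 in HFDfri 3.

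The inner COPII coat held the gene with the largest fold change of the 38. Of its 6 genes, Sec23b, Sec24c and Sec24d had an unadjusted p under 0.05, and the median was 0.18. Without HFDfri 3 only Sec23b did, and without HFDfri 1 Sec23a, Sec23b and Sec24d did. Sec23b (ENSMUSG00000027429, chr2:144556229-144590749, plus strand), a form of SEC23, which activates the GTPase of SAR1 and holds the coat together, was at 15.7, 19.6, 20.8, 18.2 and 22.8 CPM in HFDfre and 29.5, 21.5, 47.2 and 25.9 CPM in HFDfri. HFDfri 3 was far above any other library, HFDfri 1 and 4 were above every HFDfre library, and HFDfri 2 was within their range. Its fold change of 0.67 ± 0.20 had an edgeR adjusted p of 0.102, and it was 0.40 without HFDfri 3 and 0.81 without HFDfri 2. Sec23a, the other form, was at 58.9 to 67.4 CPM in HFDfre and 54.9 to 79.3 CPM in HFDfri, with a fold change of 0.11 ± 0.11 and its lowest value in HFDfri 1. The ratio of Sec23a to Sec23b per length was 2.48 to 3.15 in HFDfre and was 1.56, 3.09, 1.32 and 2.31 in HFDfri, so that HFDfri 2 alone stayed within the HFDfre range.

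The 4 forms of SEC24, which select cargo, had fold changes in both directions. Sec24c had a fold change of 0.28 ± 0.11 and Sec24d of 0.25 ± 0.10, both with an unadjusted p under 0.05 and with HFDfri 3 highest. Without HFDfri 3 they were at 0.18 and 0.15. Sec24d was at 45.9 to 52.3 CPM in HFDfre and 51.5 to 69.8 CPM in HFDfri. Sec24b had 0.10 ± 0.11, and Sec24a, the form with the highest CPM of the 4, had -0.17 ± 0.12, with 97.8 to 149.6 CPM in HFDfre and 105 to 116 CPM in HFDfri. Without HFDfre 3, the highest library of Sec24a, its value was -0.10. No difference between paralogs was tested. The Sec24a values in HFDfri all lay inside the HFDfre range.

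Neither subunit of the outer cage had an unadjusted p under 0.05. Sec13 (ENSMUSG00000030298, chr6:113728062-113740743, minus strand), whose product also belongs to the nuclear pore, was at 35.9, 35.8, 38.4, 38.7 and 37.5 CPM in HFDfre and 48.4, 31.1, 39.4 and 35.8 CPM in HFDfri. HFDfri 1 was highest and HFDfri 2 lowest of all 9, with the HFDfre libraries between them. Its fold change was 0.05 ± 0.11 (edgeR adjusted p = 0.831) and turned to -0.08 without HFDfri 1. Sec31a, the other cage subunit, was at 75.6 to 90.0 CPM in HFDfre and 73.3 to 95.0 CPM in HFDfri, with a fold change of 0.03 ± 0.10 that turned to -0.03 without HFDfri 1.

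**Figure D3:**
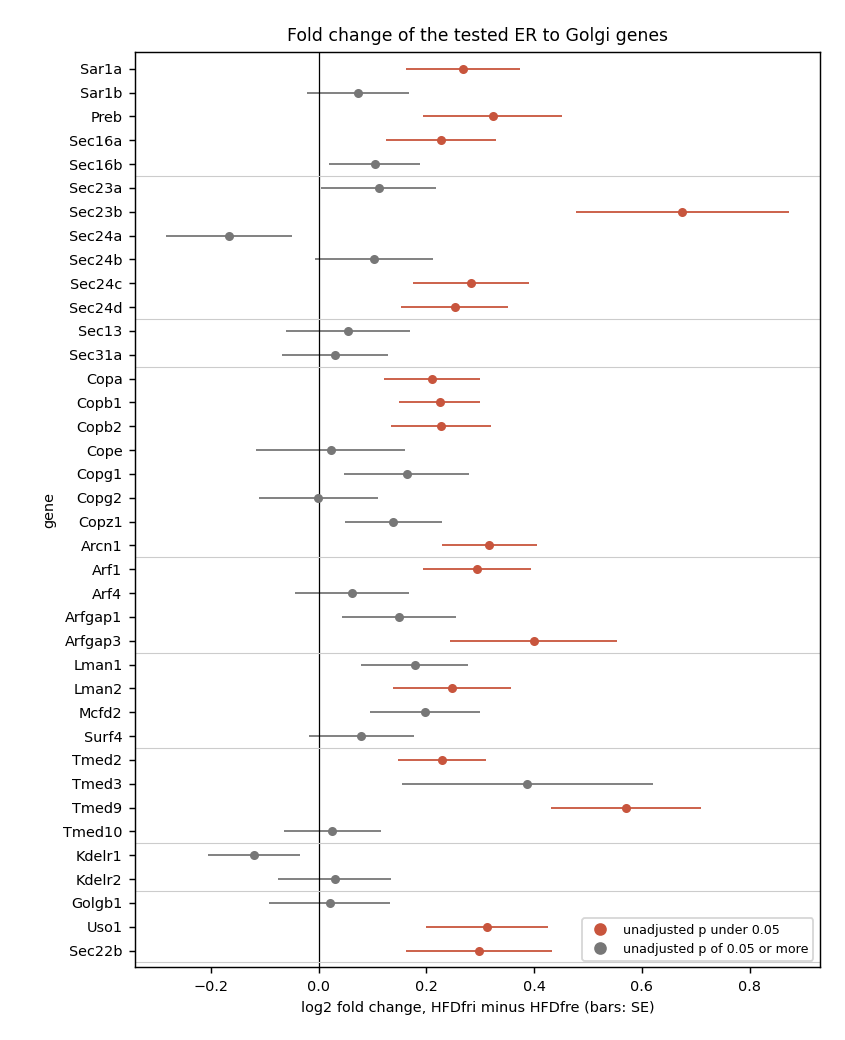
Log2 fold change, HFDfri minus HFDfre, with its SE (bars) for each of the 38 tested genes, in the order of their roles, with red points for an unadjusted p under 0.05. All 17 red points lie right of 0, between 0.21 for Copa and 0.67 for Sec23b, and only Sec24a, Kdelr1 and, by less than 0.01, Copg2 lie left of 0; Copg2 was at 0.062 with library totals without TMM.

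Among the subunits of coatomer, the COPI coat, 4 of 8 had an unadjusted p under 0.05 and a higher level in HFDfri. These were Copa, Copb1, Copb2 and Arcn1, which encode the alpha, beta, beta prime and delta subunits, and the median over the 8 was 0.19. Of all tested genes, 11.4% were higher at that level. The count of 4 was 3 without HFDfri 1 (Copb1, Copb2 and Arcn1) and 2 without HFDfri 3 (Copb1 and Arcn1). The shares of all tested genes that were higher at that level were then 12.8% and 7.03%. Arcn1 (ENSMUSG00000032096, chr9:44741564-44767845, minus strand) was at 87.0, 93.0, 88.5, 88.5 and 92.4 CPM in HFDfre and 117, 105, 126 and 99.1 CPM in HFDfri. Every HFDfri library was above every HFDfre library, with HFDfri 3 highest and HFDfri 4 closest to HFDfre. The fold change was 0.32 ± 0.09 (edgeR adjusted p = 0.0926), between 0.25 and 0.37 as single libraries were left out.

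Copb1 (ENSMUSG00000030754, chr7:114215559-114254711, minus strand), which holds the TGACGTG element shown above, was also free of overlap, at 63.8, 66.7, 64.8, 65.4 and 63.7 CPM in HFDfre and 69.9, 78.4, 80.3 and 74.5 CPM in HFDfri. Here HFDfri 1 was the lowest of the HFDfri libraries and HFDfri 2 was the second highest. For Copb1 the fold change was 0.22 ± 0.07 (edgeR adjusted p = 0.127) and ran from 0.20 to 0.25 as single libraries were left out. Copb2 had 0.23 ± 0.09 and Copa 0.21 ± 0.09. Exons of Copa overlap those of Ncstn on the other strand, at a mean of 23.1 CPM, and whether the counting used strand is not given in the sources used here.

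The other coatomer subunits had an unadjusted p of 0.05 or more. Copg2 (ENSMUSG00000025607, chr6:30747554-30896794, minus strand), a form of the gamma subunit, was at 15.8, 17.1, 16.8, 19.0 and 18.0 CPM in HFDfre and 14.7, 20.3, 18.3 and 16.1 CPM in HFDfri. The HFDfri libraries held both the lowest and the highest of the 9 values. The fold change was -0.00 ± 0.11, or 0.062 when library totals were used without TMM. Copg1, the more abundant gamma form, had 0.16 ± 0.12, Copz1, the zeta subunit, 0.14 ± 0.09, and Cope, the epsilon subunit, 0.02 ± 0.14. Copg1 and Copz1 were at 0.07 and 0.05 without HFDfri 1. Cope was at 82.2 to 106 CPM in HFDfre and 71.8 to 119 CPM in HFDfri, with HFDfri 1 highest and HFDfri 2 lowest of all 9, and its fold change was -0.15 without HFDfri 1.

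Of the 4 genes for GTPases that recruit coatomer and proteins that switch them off, Arf1 and Arfgap3 had an unadjusted p under 0.05. Both were higher in HFDfri, as were 11.4% of all tested genes at that level. Both also had such a p without HFDfri 1, and Arf1 alone without HFDfri 3. Then 12.8% and 7.03% of all tested genes were higher at that level. Arf1 (ENSMUSG00000048076, chr11:59211412-59228270, minus strand) was at 124, 133, 110.0, 140.1 and 123 CPM in HFDfre and 136, 149, 175 and 158 CPM in HFDfri. HFDfri 1 was below HFDfre 4, and the other HFDfri libraries were above all of HFDfre. Its fold change was 0.29 ± 0.10 (edgeR adjusted p = 0.133). Arfgap3, an activator of the ARF GTPase, had 0.40 ± 0.16 at only 3.75 to 4.78 CPM in HFDfre and 4.51 to 6.73 CPM in HFDfri. Arf4, a second ARF of the early secretory route, had 0.06 ± 0.11, and Arfgap1, the other activator, 0.15 ± 0.11 (0.07 without HFDfri 1).

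**Figure D4:**
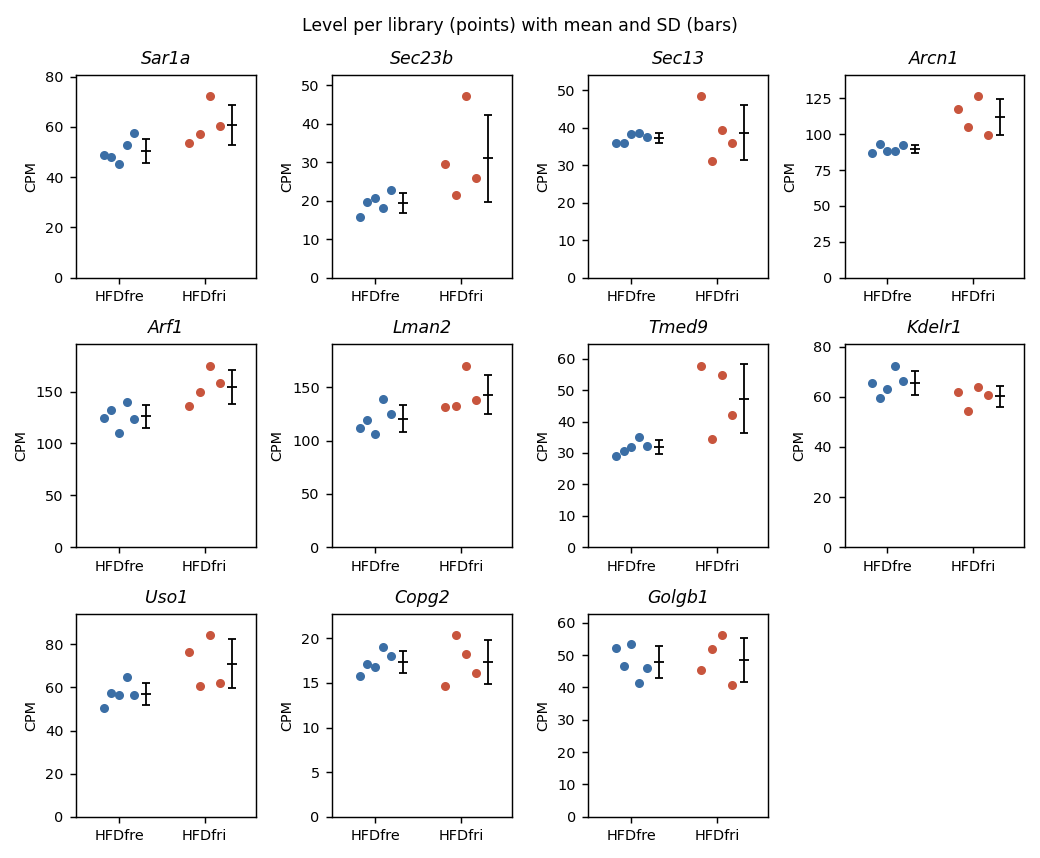
CPM in each library (points, HFDfre blue, HFDfri red, in label order from left to right) with the mean and SD of each group (black) for the 9 genes with the smallest unadjusted p in their role and for Copg2 and Golgb1, which had the smallest fold changes. The y axes start at 0 and differ in scale. Arcn1 shows no overlap between groups, while in Copg2 and Golgb1 the HFDfre points lie within the range of the HFDfri points.

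The cargo receptors, which are abundant in liver, had positive fold changes from 0.08 to 0.25. Lman2 (ENSMUSG00000021484, chr13:55343833-55362783, minus strand), a lectin of the early secretory route, was at 112, 119.9, 106, 139 and 125 CPM in HFDfre and 131, 133, 170.3 and 138 CPM in HFDfri. HFDfri 3 was highest, and the other HFDfri libraries lay within the upper part of the HFDfre range. The fold change was 0.25 ± 0.11 (edgeR adjusted p = 0.222). Lman1 and Mcfd2, which together carry clotting factors out of the ER, had 0.18 ± 0.10 and 0.20 ± 0.10. Without HFDfri 3, Lman2 was at 0.15, no longer with an unadjusted p under 0.05, and Lman1 at 0.08. Surf4, a receptor for lipoproteins and other soluble cargo, had 0.08 ± 0.10 at 159 to 168 CPM in HFDfre and 147 to 195 CPM in HFDfri. Surf4 shares exon sequence with Surf2 on the other strand, at a mean of 15.3 CPM.

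The p24 proteins, which help to load cargo at both coats, held the gene with the smallest p of the 38. Tmed9 (ENSMUSG00000058569, chr13:55573732-55597697, plus strand) was at 29.2, 30.8, 31.8, 35.1 and 32.4 CPM in HFDfre and 57.7, 34.3, 54.9 and 42.2 CPM in HFDfri. HFDfri 1 and 3 were far above HFDfre and HFDfri 4 was above it, but HFDfri 2 was below HFDfre 4. The group means were 31.8 ± 2.19 in HFDfre and 47.3 ± 11.0 in HFDfri (CPM, SD), and the fold change was 0.57 ± 0.14 (edgeR adjusted p = 0.0677). As single libraries were left out it ran from 0.45 without HFDfri 1 to 0.70 without HFDfri 2.

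Tmed2, another p24 protein, was at 97.2, 111, 99.5, 111 and 107 CPM in HFDfre and 121, 117, 132 and 124 CPM in HFDfri. All 4 HFDfri libraries were above HFDfre and lay close together, HFDfri 1 and 3 included. Tmed2 had a fold change of 0.23 ± 0.08 (edgeR adjusted p = 0.148). Tmed3 had 0.39 ± 0.23, which rested on HFDfri 3 at 13.8 CPM and was 0.04 without it. Of the 4 p24 genes, Tmed2 and Tmed9 had an unadjusted p under 0.05 with all libraries and without HFDfri 1 or HFDfri 3. In the same order, 11.4%, 12.8% and 7.03% of all tested genes were higher at that level. Tmed10, the most abundant p24 gene per length, had 0.03 ± 0.09.

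The KDEL receptors, which return ER chaperones such as HSPA5 from the Golgi, had fold changes of either sign and no unadjusted p under 0.05. Kdelr1 (ENSMUSG00000002778, chr7:45872772-45883732, plus strand) was at 65.6, 59.4, 63.1, 72.3 and 66.4 CPM in HFDfre and 61.8, 54.3, 63.8 and 60.5 CPM in HFDfri. HFDfri 2 was lowest, and the HFDfri values otherwise lay within the HFDfre range. The fold change was -0.12 ± 0.09 (edgeR adjusted p = 0.45) and stayed negative, between -0.16 and -0.08, as single libraries were left out. Kdelr2 had 0.03 ± 0.11 at 64.2 to 76.9 CPM in HFDfre and 59.6 to 81.6 CPM in HFDfri. Kdelr3 was not tested, with 0 to 0.289 CPM per library, and its exons overlap those of Ddx17, at a mean of 134 CPM on the other strand.

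Of the 3 genes for tethers that catch incoming vesicles and the SNARE that fuses them, Uso1 and Sec22b had an unadjusted p under 0.05. Both were higher in HFDfri, as were 11.4% of all tested genes at that level. Uso1 (ENSMUSG00000029407, chr5:92137938-92202798, plus strand), the tether p115, was at 50.5, 57.4, 56.3, 64.9 and 56.5 CPM in HFDfre and 76.5, 60.8, 84.2 and 62.2 CPM in HFDfri. HFDfri 1 and 3 were above every HFDfre library, and HFDfri 2 and 4 were below HFDfre 4. Its fold change came to 0.31 ± 0.11 (edgeR adjusted p = 0.156). Sec22b, the SNARE, had 0.30 ± 0.13 with the same 2 libraries highest, and 0.20 without HFDfri 3. Of the 3 genes, Uso1 alone had an unadjusted p under 0.05 without HFDfri 1, and 0 had without HFDfri 3. The shares of all tested genes that were higher at that level were 12.8% and 7.03%. Golgb1 (ENSMUSG00000034243, chr16:36875140-36933085, plus strand), the long Golgi tether giantin, was at 52.2, 46.6, 53.5, 41.2 and 46.0 CPM in HFDfre and 45.5, 51.9, 56.1 and 40.8 CPM in HFDfri. The groups overlapped almost fully, with a fold change of 0.02 ± 0.11.

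The element TGACGTG was found in genes with and without an unadjusted p under 0.05. It was in 4 of the 15 genes with a promoter sequence and an unadjusted p under 0.05, namely Sec24d, Copb1, Copb2 and Arf1. Of the 19 others, 3 held it, namely Sec16b, Sec23a and Kdelr3. Kdelr3 was not tested and has no p-value. Of the 7, the fold changes of the 6 tested genes ran from 0.10 to 0.29. Tmed9 and Sec23b, with the largest fold changes, did not hold these letters in the searched window.

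The remaining machinery of the route was described from a list of 63 other genes, of which 62 were tested. Positive fold changes were found in 41 (66.1%), against 49.1% of all tested genes, and the median was 0.09. By edgeR 0 passed the adjusted threshold, and with an unadjusted p under 0.05, 16 (25.8%) were higher in HFDfri, against 11.4% of all tested genes, and 5 (8.06%) were lower, against 9.79%. The lower ones were Arf5, Copz2, Cideb, Trappc1 and Bnip1. DESeq2 called 2 genes, Arf5 and Copz2 (adjusted p = 0.0155 and 0.0227), which is 3.23% of the list against 7.26% of all tested genes, and limma-voom called 0. Without HFDfri 3, 7 were higher and 2 lower at the unadjusted level. Of all tested genes, 7.03% were then higher and 13.6% had such a p in either direction. Without HFDfri 1, 16 were higher and 9 lower, with 12.8% of all tested genes higher and 25.7% in either direction. Higher in HFDfri at the unadjusted level were 4 of 9 genes of SNAREs and an SM protein (Scfd1). So were 3 of 14 TRAPP genes, which encode a vesicle tether, and 3 of 10 genes of RABs, golgins and other tethers. Also higher were 3 of 13 further coat and exit site genes, 2 of 12 further receptors and p24 genes, and 1 of 4 YIP genes. In the same order these counts were 1, 2, 1, 1, 2 and 0 without HFDfri 3, and 4, 4, 2, 4, 1 and 1 without HFDfri 1. Without HFDfri 1, edgeR called 6 of the list, in a fit that called 7.65% of all tested genes.

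The coat genes of this second list with the smallest p were lower in HFDfri. Arf5 (ENSMUSG00000020440, chr6:28423560-28426602, plus strand), a further ARF GTPase, was at 70.5, 60.0, 60.3, 59.8 and 64.6 CPM in HFDfre and 55.3, 44.1, 43.6 and 50.5 CPM in HFDfri. Every HFDfri library was below every HFDfre library, and HFDfri 1 was the closest. The fold change was -0.38 ± 0.10 (edgeR adjusted p = 0.0758). Copz2 (ENSMUSG00000018672, chr11:96849870-96861203, plus strand), the less abundant zeta form, was at 12.3, 10.6, 13.9, 13.1 and 14.8 CPM in HFDfre and 9.76, 7.26, 6.53 and 11.1 CPM in HFDfri. Only HFDfri 4 was above the lowest HFDfre library, and the fold change was -0.58 ± 0.16 (edgeR adjusted p = 0.095). Lman2l (ENSMUSG00000001143, chr1:36419871-36445271, minus strand), a relative of Lman2, was at 9.55, 9.42, 6.99, 8.92 and 8.97 CPM in HFDfre and 14.8, 9.53, 11.6 and 12.2 CPM in HFDfri. HFDfri 2 alone was within the HFDfre range, and the fold change was 0.45 ± 0.14 (edgeR adjusted p = 0.113).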

How the data were processed

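Total RNA from the liver of 9 mice was sequenced with paired-end reads, 5 libraries for HFDfre and 4 for HFDfri. The submitters' processing notes name HISAT2, StringTie and the build mm10. Versions, the annotation release and the use of strand are not given in the sources used here. The library kit is named differently in the labels (NEBNext Ultra) and in the methods (KAPA). The authors deposited 1 table of whole numbers per gene, unscaled, which was handled as estimated counts. Among low values, 4 is in excess (3990 values, against 2172 at 3 and 1840 at 5), so count models describe their counting error only approximately. Rounding left every value as it was.

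Genes were kept with filterByExpr by group (14220 of 33211) and tested with edgeR (4.0.16, R 4.3.3), by quasi-likelihood with TMM factors and without covariates, over all 9 libraries. P-values were adjusted by Benjamini-Hochberg over all tested genes, with a threshold of 0.05. The SE of a log2 fold change is the change over the root of the F statistic. CPM used TMM-scaled library sizes, and log2 CPM a prior count of 2. Levels per length used the median length of the protein-coding transcripts in GENCODE M21. The study used DESeq2 (version 1.42.0 here), which was run as an alternative with limma-voom (limma 3.58.1) and the settings named in the closing section. Promoter windows came from RefSeq (GRCm38.p6).

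The genes and lists were chosen with earlier results of these data known, and the lists were written from general knowledge. Values in every library are given for any gene past the adjusted threshold, for the gene with the smallest unadjusted p in each of the 9 roles, for the 2 genes with the smallest fold change among those whose mean log2 CPM was 4 or more, and for the 3 genes of the second list with the smallest unadjusted p. Copb1 and Tmed2, and the genes of ER stress, were added after their values were seen. The scripts were tested on simulated data.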

Additional observations from a re-analysis of the deposited data

Results flagged for a closer look

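In each group, the highest and lowest library of each of the 38 tested genes were compared with the rest by Dixon's test. Of 76 sets of values, 2 held a library far from the others, and chance flags about 1 in 20 sets, here 3.8. Sec16b was low in HFDfri 4, at a log2 CPM of 6.03 against 6.27 to 6.29 in the other 3 HFDfri libraries. Sec23a was low in HFDfre 1, at a log2 CPM of 5.88 against 6.03 to 6.08 in the other 4 HFDfre libraries.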

How the results depend on the processing

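Among 19 alternative settings, the median log2 fold change of the 38 genes (39 where Kdelr3 passed the filter) stayed positive, and 31 to 37 genes were higher in HFDfri. Genes past the adjusted threshold numbered 3 with DESeq2 and 0 to 1 as single libraries were left out. The 17 genes with an unadjusted p under 0.05 (44.7% of the members against 21.2% of all tested genes in either direction) became 11 with the replicate block (28.9% against 17.8%), 2 within the libraries under 3% Gm26924 (5.26% against 9.67%), and 6 to 18 as single libraries were left out (15.8% against 13.6% without HFDfri 3 and 18.4% against 16.6% without HFDfre 1). Equal replicate numbers did not pair the libraries (correlations of their deviations from the group means 0.03, 0.08, -0.14 and 0.03), and under the block 0 of all tested genes passed the adjusted threshold. Of the second list, 2 genes passed the adjusted threshold with DESeq2 and 0 to 6 as single libraries were left out. Of its 62 tested genes, 21 had an unadjusted p under 0.05, against 21.2% of all tested genes. The count became 13 with library totals (against 17.3%) and 4 within the libraries under 3% Gm26924 (against 9.67%). As single libraries were left out it was 9 to 25, with 9 without HFDfri 3 (against 13.6%) and 25 without HFDfri 1 (against 25.7%). It was 13 without HFDfre 1 (against 16.6%) or HFDfri 2 (against 19.4%). Fewer libraries enter the comparisons within 3% and with 1 left out, and the cause of the other changes was not tested.

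Over 722 pairs of a gene and a setting, the sign turned in 27, in 8 genes whose fold changes lay near 0. Within the libraries under 3% Gm26924, Sec31a was at -0.015 (log2), Arf4 at -0.0286, Kdelr2 at -0.0682 and Golgb1 at -0.118. With the replicate block, Cope was at -0.00738 and Copg2 at 0.00584, and with library totals Copg2 was at 0.0623. As single libraries were left out, Sec13 ran from -0.0836 to 0.145, Sec31a from -0.0265 to 0.0992, Cope from -0.145 to 0.120, Copg2 from -0.0868 to 0.0592, Arf4 from -0.0391 to 0.145, Tmed10 from -0.0626 to 0.0744, Kdelr2 from -0.0450 to 0.112 and Golgb1 from -0.0566 to 0.0947. With the total exon length in place of the median transcript length, an alternative chosen after seeing the data, the ratio of Sec23a to Sec23b in HFDfre was 2.28 and not 2.82, and that of Sec24c to Sec24d 0.97 and not 0.53. Kdelr3, at 0 to 0.289 CPM, was tested only without the filter on low counts or with HFDfri 1, 2 or 4 left out.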
